A study of Mus musculus with 20 samples.

Results

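The retinoid and vitamin D pathway genes examined here were Vdr, Rxra and Rarg (nuclear receptors), Cyp27b1 and Cyp24a1 (vitamin D enzymes), Rdh10, Dhrs9 and Cyp26b1 (retinoid enzymes) and Crabp2 (a retinoic acid binding protein). They were selected by symbol, as 9 of the 22090 genes in the count table. RNA-seq of back skin from female SKH-1 mice, a hairless strain, covered 8 normal skin (NS), 8 actinic keratosis (AK) and 4 cutaneous squamous cell carcinoma (cSCC) samples. By the protocol, 4 unirradiated mice gave 1 NS each, while each of 4 mice exposed to ultraviolet radiation gave 1 NS, 2 AK and 1 cSCC. The mice are given as 7 months old, by the study's methods before irradiation that then ran for months, and irradiation was daily by the labels but on fewer days of the week by the study's methods. NS therefore mixes unirradiated and irradiated mice, and the labels give neither the mouse of a sample nor which NS had been irradiated. The 8 AK samples stand for 4 mice, so p-values that treat samples as independent may be too small.

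Retinoids act after oxidation. Dehydrogenases such as Rdh10 turn retinol into retinaldehyde, aldehyde dehydrogenases turn it into retinoic acid, Crabp2 carries retinoic acid to the nucleus, and Cyp26 enzymes break it down. Retinoic acid receptors and the vitamin D receptor bind DNA as pairs with RXR proteins, of which Rxra is the main form in the epidermis. Keratinocytes can both make active vitamin D (calcitriol, through Cyp27b1) and destroy it (through Cyp24a1), and both hormones are known to influence keratinocyte growth and maturation.

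Total counts per sample ranged from 775750 (cSCC replicate 20) to 14055206 (AK replicate 10). CPM are library-size-scaled counts that include TMM factors. After this scaling, 3 counts corresponded to 0.225 CPM at the least (AK replicate 10) and 3.78 CPM at the most (AK replicate 12). The TMM factor was 0.509 in cSCC replicate 18 and 0.852 to 1.22 in the other samples, which raises the CPM of replicate 18. Keratin and other basal keratinocyte markers were present in all groups, and their summed level ranged from 5312 to 16333 CPM in NS, from 9323 to 14363 CPM in AK and from 3866 to 18488 CPM in cSCC. In cSCC replicate 20, 8 lung genes summed to 36056 CPM, against 15.8 CPM at most in the other cSCC samples, and in cSCC replicate 21, 8 heart muscle genes summed to 57841 CPM, against 159 CPM at most. Values below are therefore also given without these samples where they bear on a result. A gene was called a DEG when its Benjamini-Hochberg adjusted p in edgeR's quasi-likelihood test was under 0.05 and its fold change was above 1.5 or below 0.67. Over all genes tested this share was 4.64% of 11677 genes in AK vs. NS, 19.3% of 12097 in cSCC vs. NS and 24.4% of 12032 in cSCC vs. AK. Scaling by library size alone turned 264 higher and 278 lower genes in AK vs. NS into 176 and 481, turned 1414 higher and 926 lower genes in cSCC vs. NS into 625 and 1332, and turned 1931 and 1004 in cSCC vs. AK into 1021 and 1356. It also moved the median log2 fold change of all genes from 0.14 to -0.17 in cSCC vs. NS.

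Of the 9 genes, 7 passed the filter on low counts in each comparison, and Cyp27b1 and Cyp24a1 did not. In AK vs. NS, 0 of the 7 were DEGs by edgeR, against 4.64% of all genes, with 1 higher and 3 lower at an unadjusted p under 0.05, where 1348 and 1527 of all 11677 genes were. DESeq2's Wald test called 3 (1049 of all genes), the study's own kind of per-gene rule 3 (1828 of all genes) and limma voom 2 (1043 of all genes). In cSCC vs. NS, 2 of the 7 fell (Vdr and Cyp26b1), where 7.65% of all genes fell. In cSCC vs. AK only Vdr fell, where 8.34% of all genes fell. No gene had AK samples wholly above or wholly below the NS samples, an arrangement that 0.394% and 0.128% of all genes showed, and none had cSCC samples wholly above NS (2.70% of all genes) or AK (3.33%). The median log2 fold change of the 7 genes was -0.23 in AK vs. NS, -0.68 in cSCC vs. NS and -0.79 in cSCC vs. AK, beside -0.04, 0.14 and 0.17 over all genes tested.

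**Figure D1:**
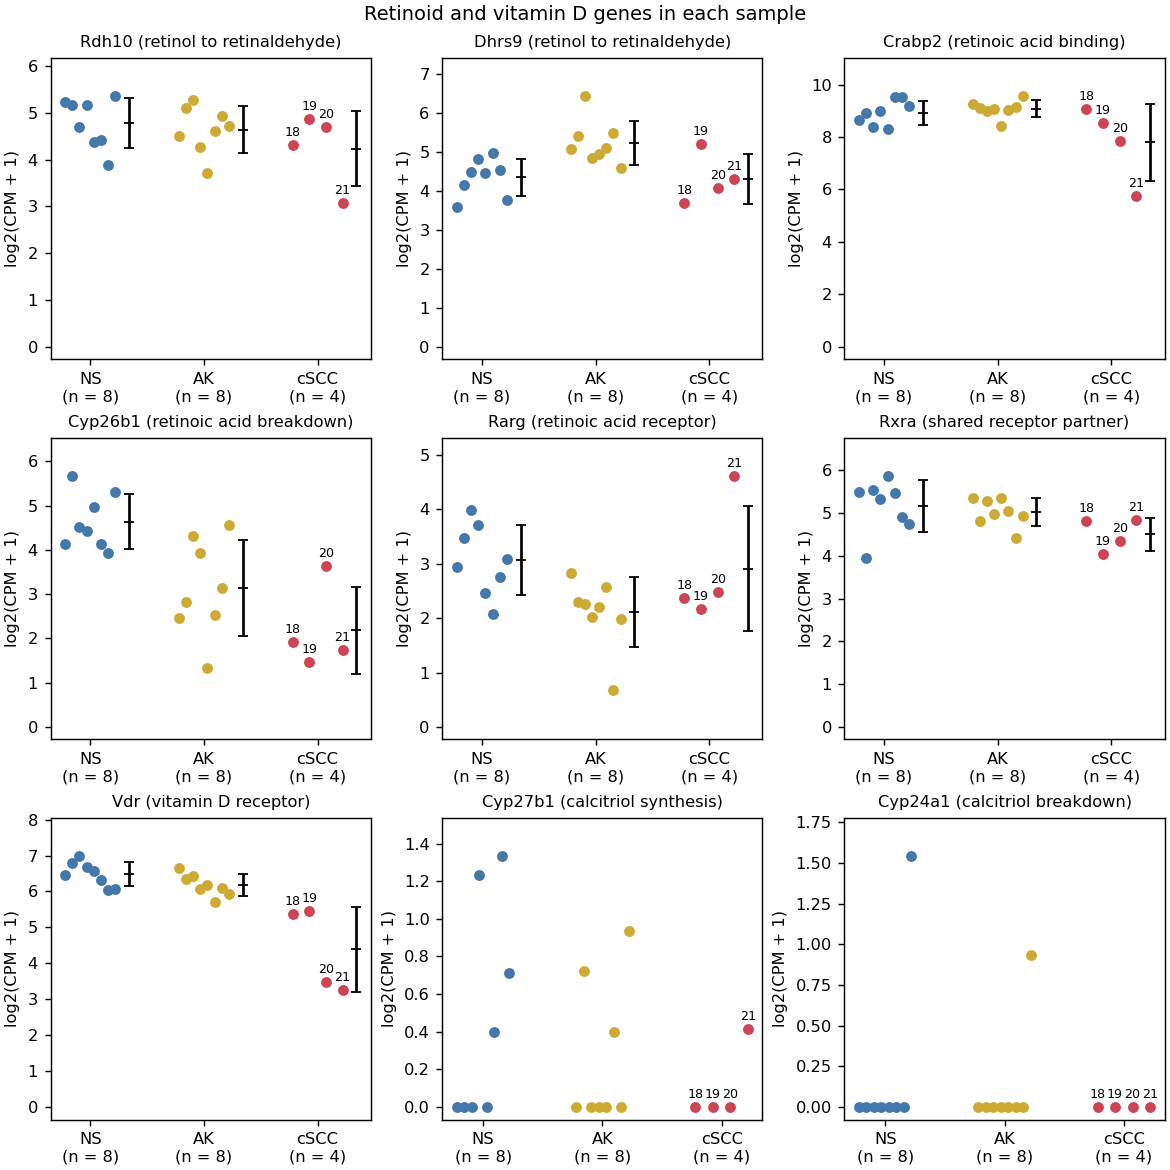
Level of each gene in each sample, as log2(CPM + 1), in NS, AK and cSCC. Points are samples, the black bar is the mean with its SD (not drawn for Cyp27b1 and Cyp24a1, which had 0 counts in most samples), and cSCC points carry their replicate number. Vdr in all 4 cSCC samples lay below every NS and AK sample.

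Promoter windows are shown for Vdr and Cyp26b1, the genes that fell in cSCC. Each is the RefSeq window from 250 bases before to 50 bases after an annotated start, written along the gene's strand, on GRCm38.p6. The Vdr window lies at chr15:97908247-97908546 on the minus strand, within the Vdr gene as GENCODE M21 draws it (chr15:97854425-97910630), and the Cyp26b1 window lies at chr6:84593761-84594060 on the minus strand, around the 5' end of that gene (chr6:84571414-84593908). Capitals mark half-sites of a direct repeat, the kind of element that pairs with RXR bind.
Vdr: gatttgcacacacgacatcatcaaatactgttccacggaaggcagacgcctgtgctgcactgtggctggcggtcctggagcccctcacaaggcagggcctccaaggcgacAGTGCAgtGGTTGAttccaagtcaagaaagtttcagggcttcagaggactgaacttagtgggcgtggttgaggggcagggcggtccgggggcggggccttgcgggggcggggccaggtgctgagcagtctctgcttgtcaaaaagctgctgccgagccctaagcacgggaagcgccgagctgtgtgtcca
Cyp26b1: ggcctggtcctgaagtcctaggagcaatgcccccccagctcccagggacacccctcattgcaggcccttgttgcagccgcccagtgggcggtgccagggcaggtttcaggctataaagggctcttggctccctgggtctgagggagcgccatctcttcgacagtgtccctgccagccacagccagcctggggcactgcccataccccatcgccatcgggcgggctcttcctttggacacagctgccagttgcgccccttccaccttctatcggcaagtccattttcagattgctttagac

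The search used 2 hexamers in the same direction, on both strands, spaced by 1, 2, 3 or 5 bases (DR1, DR2, DR3 and DR5). Each hexamer had A or G, then G, then G or T, then T, then C or G, then A, and spacings were searched separately so that matches could overlap. With at most 1 mismatch over the 12 bases, the Vdr window held 1 match, AGTGCAgtGGTTGA, a DR2 at positions -140 to -127 relative to the start. The Cyp26b1 window held none, nor did the windows of Rxra, Rarg, Dhrs9 and Cyp27b1, and windows were matched for 6 of the 9 genes. Of all 32851 promoter windows of this length, 7.34% held a DR1 at this setting, 6.71% a DR2, 5.98% a DR3 and 6.22% a DR5. As a reference for the search, exact DR5 elements were read in 2 genes that are known to respond to retinoic acid, Rarb and Cyp26a1, and 0.323% of all windows held an exact DR5. Dhrs3, also on the list of retinoic acid targets and searched alike, had no match with at most 1 mismatch. The search thus did not find an element in every listed target. The exact elements of Rarb and Cyp26a1 are shown 5' to 3' along the strand that carries the repeat, with the half-sites in capitals.
Rarb: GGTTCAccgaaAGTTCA
Cyp26a1: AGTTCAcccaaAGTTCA

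Compared per kilobase of exon, the order of the genes was led by Crabp2 in every group. In NS its mean level was 385 CPM per kb, and the next was Vdr at 16.1 CPM per kb. Rxra (6.84 CPM per kb), Rdh10 (6.77), Cyp26b1 (4.88), Dhrs9 (4.74) and Rarg (1.90) followed, each overlapping its neighbour in range across samples. Cyp27b1 (0.186 CPM per kb) and Cyp24a1 (0.0672 CPM per kb) came last and overlapped each other. The range of Vdr stood apart from that of its neighbours in NS. In AK the range of Vdr overlapped that of Dhrs9, the third in order, and in cSCC the range of Vdr (mean 4.52 CPM per kb) overlapped those of Rdh10 and Rxra, its neighbours.

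Vdr encodes the receptor for calcitriol. Its level ranged from 64.5 CPM (replicate 8) to 126 CPM (replicate 4) in NS with a median of 91.1 CPM, and from 51.4 to 100.1 CPM in AK with a median of 69.3 CPM. The 4 cSCC samples had 40.3 CPM (replicate 18), 43.1 CPM (replicate 19), 10.2 CPM (replicate 20, from 9 counts) and 8.60 CPM (replicate 21). All cSCC samples lay below all NS and AK samples, and replicates 20 and 21 lay lowest. In these bulk samples fewer cells of a type and less RNA per cell cannot be told apart. Vdr fell in cSCC vs. NS by 1.79 ± 0.43 (SE) on the log2 scale (edgeR adjusted p = 0.0116), and groups that did not overlap, with cSCC lower, were found for 5.73% of all genes. Without cSCC replicates 20 and 21 the fall from NS was 1.10 ± 0.31 on the log2 scale (edgeR adjusted p = 0.0371).

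Against AK, Vdr in cSCC fell by 1.41 ± 0.40 on the log2 scale (edgeR adjusted p = 0.0205). Lower, non-overlapping groups made up 6.84% of all genes in that comparison. Without cSCC replicates 20 and 21 the difference was -0.73 ± 0.27 and no longer passed the test (edgeR adjusted p = 0.0940). Basal keratinocyte markers summed to 17881 and 18488 CPM in cSCC replicates 18 and 19, and to 5412 and 3866 CPM in replicates 20 and 21, where Vdr was lowest. None of the 7 basal markers was a DEG by edgeR in any comparison (0 to 3 per comparison at an unadjusted p under 0.05, and 0 in cSCC vs. NS). Suprabasal keratinocyte markers (Krt1, Krt10, Lor and others) moved with the group as well. They summed to 12157 to 33463 CPM in NS, 7631 to 23550 CPM in AK and 845 to 10909 CPM in cSCC. Of the 8, 7 fell in cSCC vs. NS, beside 7.65% of all genes. The part of keratinocyte content or of lung and heart RNA in the Vdr result was not tested. In AK vs. NS the Vdr difference was -0.35 ± 0.17 on the log2 scale (edgeR adjusted p = 0.200), with 7 of 8 AK samples below the NS median.

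Rxra encodes the common partner of the vitamin D, retinoic acid and other receptors. It ranged from 14.5 to 57.5 CPM in NS (median 41.1), from 20.4 to 40.1 CPM in AK (median 31.3), and stood at 27.1, 15.4, 19.3 and 27.5 CPM in cSCC replicates 18 to 21. The lowest NS sample, replicate 2, lay below every cSCC sample, so the groups overlapped. Its log2 difference was -0.23 ± 0.23 in AK vs. NS (edgeR adjusted p = 0.557), -0.68 in cSCC vs. NS (0.188) and -0.39 in cSCC vs. AK (0.303). Exact permutation tests of its log2(CPM + 1), unadjusted, gave p = 0.582, 0.0889 and 0.0283 in the same order.

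Rarg encodes the retinoic acid receptor form that prevails in the epidermis. NS samples ranged from 3.19 to 14.9 CPM with a median of 7.07 CPM, and AK samples from 0.599 CPM (replicate 16, from 1 count) to 6.14 CPM with a median of 3.70 CPM. All 8 AK samples were below the NS median and 3 were below every NS sample. The AK vs. NS difference was -1.13 ± 0.37 on the log2 scale and did not pass the test (edgeR adjusted p = 0.0754), while DESeq2's Wald test and the paper's rule called it lower. An exact permutation test of log2(CPM + 1), two-sided and 1 of 27 such tests without adjustment, gave p = 0.00761. In cSCC the values were 4.17, 3.52 and 4.55 CPM in replicates 18, 19 and 20 but 23.5 CPM (142 counts) in replicate 21, the library with heart muscle genes. The cSCC vs. NS difference of 0.29 ± 0.57 (edgeR adjusted p = 0.765) turned to -0.96 (edgeR adjusted p = 0.273) without that replicate. The cSCC vs. AK difference went from 1.51 ± 0.59 (edgeR adjusted p = 0.0715) to 0.14. Of the 4 cSCC samples, 3 lay below the NS median and 1 above every NS sample.

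Cyp27b1, the enzyme that makes calcitriol, was close to the limit of detection. It had 16 counts over 4 of the 8 NS samples, 9 counts over 3 AK samples and 2 counts in 1 cSCC sample. As CPM of each group's summed counts, without TMM factors, this was 0.528 in NS (95% exact binomial interval 0.302 to 0.858), 0.231 in AK (0.106 to 0.439) and 0.157 in cSCC (0.0191 to 0.569). The intervals overlap and cover counting error only, and overlap is not a test of a difference. The exact permutation test of log2(CPM + 1), unadjusted, gave p = 0.471 in AK vs. NS, 0.364 in cSCC vs. NS and 0.604 in cSCC vs. AK. Cyp24a1, the enzyme that destroys calcitriol and a classical target of Vdr, had 9 counts in NS replicate 9, 4 counts in AK replicate 17 and 0 in the other 18 samples. The 0 of 12698535 counts in cSCC had an upper 95% exact binomial limit of 0.290 CPM, and 3 counts would be 0.236 CPM. Exons of Cyp24a1 overlap those of Pfdn4 on the opposite strand, and the strand setting of the counting was not stated, so these few counts cannot be assigned to Cyp24a1 with certainty.

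Rdh10 catalyses the first step from retinol. It ranged from 13.7 to 40.2 CPM in NS (median 29.8) and from 12.1 to 37.8 CPM in AK (median 24.3), and was 18.8, 28.1, 25.0 and 7.44 CPM in cSCC replicates 18 to 21. The groups overlapped in each comparison. Differences were -0.21 ± 0.25 in AK vs. NS, -0.47 in cSCC vs. NS and -0.25 in cSCC vs. AK on the log2 scale (edgeR adjusted p = 0.643, 0.418 and 0.666).

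Dhrs9, another retinol dehydrogenase of epithelia, was the 1 gene of the 7 that was higher in AK at an unadjusted p under 0.05. NS samples ranged from 11.1 to 30.3 CPM (median 21.1), and AK samples from 22.9 CPM (replicate 17) to 85.8 CPM (replicate 12, from 68 counts), with a median of 32.9 CPM. All 8 AK samples were above the NS median and 5 were above every NS sample. The AK vs. NS difference was 0.92 ± 0.27 on the log2 scale, with edgeR adjusted p = 0.0515, which did not pass the threshold. The exact permutation test of log2(CPM + 1), unadjusted, gave p = 0.00202. DESeq2, limma voom and the paper's rule called it higher in AK, as did the fits without NS replicate 7 or without AK replicate 17. In cSCC the values were 11.8, 35.6, 15.9 and 18.7 CPM in replicates 18 to 21, spanning most of the NS range. The differences were 0.08 against NS (edgeR adjusted p = 0.902, and the sign turned under other settings) and -0.79 against AK (edgeR adjusted p = 0.155). For cSCC the unadjusted exact permutation p was 0.921 against NS and 0.0283 against AK.

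Crabp2, which delivers retinoic acid to its receptors, was the most abundant of the 9 genes. It ranged from 319 to 728 CPM in NS (median 493) and from 340 to 760 CPM in AK (median 543). In cSCC it was 539 CPM in replicate 18, 367 CPM in replicate 19, 229 CPM in replicate 20 and 52.6 CPM in replicate 21. Replicates 20 and 21, with lung and heart RNA, lay below every NS and AK sample, while replicates 18 and 19 lay within both ranges. The place of replicate 18 (776 of 2830894 counts) rests on its TMM factor of 0.509. By library size alone it would lie below both ranges. The difference was 0.10 ± 0.19 in AK vs. NS (edgeR adjusted p = 0.784), -0.74 in cSCC vs. NS (0.286) and -0.81 in cSCC vs. AK (0.173). The exact permutation test of log2(CPM + 1), unadjusted, gave p = 0.474, 0.0424 and 0.0222 in the same order. Without replicates 20 and 21 the differences in cSCC were -0.15 against NS and -0.22 against AK. Without replicate 18 the difference from AK was -1.31 and passed (edgeR adjusted p = 0.0402), and the paper's rule also called it lower than in AK.

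Cyp26b1 breaks down retinoic acid. NS samples ranged from 14.3 CPM (replicate 8) to 50.1 CPM (replicate 2) with a median of 21.4 CPM, and AK samples from 1.51 CPM (replicate 14, from 5 counts) to 22.6 CPM (replicate 17) with a median of 6.93 CPM. Of the 8 AK samples, 6 lay below every NS sample. The AK vs. NS difference was -1.45 ± 0.43 on the log2 scale with edgeR adjusted p = 0.0550, which did not pass, while the unadjusted exact permutation p was 0.00497. Scaling by library size alone or by upper quartiles, DESeq2 and limma voom called it lower in AK, as did the fits without NS replicate 8 or without AK replicate 17. Cyp26b1 and Dhrs9 had the strongest opposite ranks among the member pairs over the 16 NS and AK samples (Spearman's rho = -0.66, a description of samples that share the group difference and their depth).

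In cSCC, Cyp26b1 was at 2.78 CPM (replicate 18, 4 counts), 1.76 CPM (replicate 19, 4 counts), 11.4 CPM (replicate 20, 10 counts) and 2.32 CPM (replicate 21, 14 counts). All lay below every NS sample, an arrangement that 5.73% of all genes showed. Cyp26b1 fell by 2.64 ± 0.58 on the log2 scale in cSCC vs. NS (edgeR adjusted p = 0.00814). Without replicates 20 and 21 it fell by 3.52 on the log2 scale (edgeR adjusted p = 0.00757), from 2 libraries with 4 counts each. Under limma voom with quality weights the same comparison gave an adjusted p of 0.0594. Against AK the difference was -1.15 on the log2 scale (edgeR adjusted p = 0.279), and the groups overlapped. These comparisons share samples: AK vs. NS and cSCC vs. NS use the same NS, so the values are given side by side only.

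**Figure D2:**
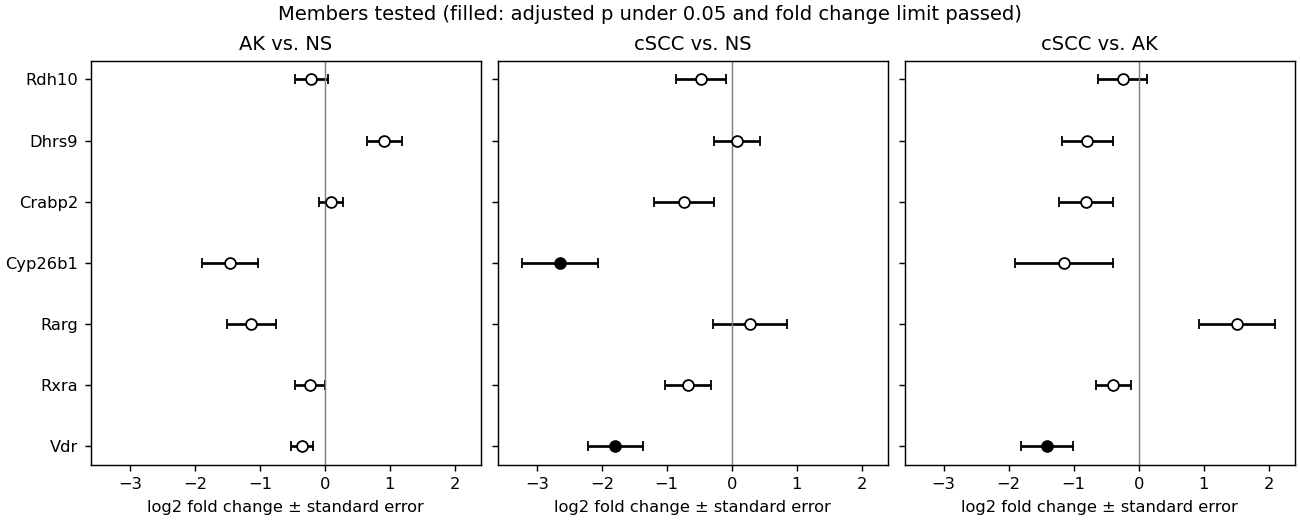
Fitted log2 fold change with its standard error for the 7 genes tested, in a panel for each comparison. Filled points passed the adjusted p and fold change limits. Only Vdr and Cyp26b1 in cSCC vs. NS and Vdr in cSCC vs. AK are filled.

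**Figure D3:**
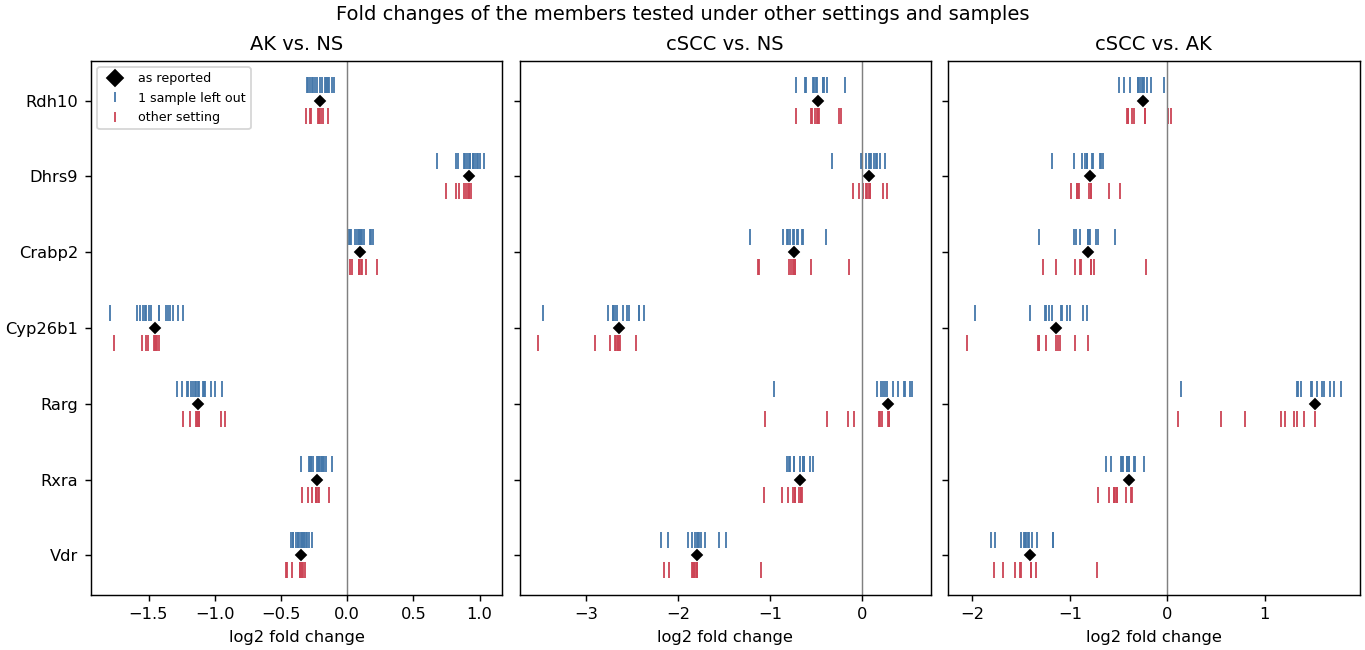
Log2 fold change of the same 7 genes as reported (diamonds), with 1 sample left out (blue ticks) and under other settings (red ticks), in separate horizontal scales for each comparison. The cSCC vs. NS values of Vdr and Cyp26b1 stay below 0 throughout, and those of Rarg lie on both sides of 0.

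Among the other 83 genes of 10 retinoid and vitamin D lists, 57 were tested in AK vs. NS, and 5 fell and 0 rose, a share to be read beside 2.38% and 2.26% of all genes. At an unadjusted p under 0.05 in edgeR, 3 were higher and 16 lower, beside 1348 and 1527 of all 11677 genes. In cSCC vs. NS 4 of 62 rose and 11 fell, beside 11.7% and 7.65% of all genes (11 rose and 12 fell without cSCC replicate 18, and 10 and 11 with no filter beyond 1 count), and in cSCC vs. AK 8 of 59 rose and 8 fell, beside 1931 higher and 1004 lower (8.34%) of all 12032 genes. Library size alone gave 4 higher and 12 lower in the last comparison. Without cSCC replicates 20 and 21, 11 of the 15 calls against NS and 9 of the 16 against AK were kept, and other genes gained a call. That fit gave 3 higher and 16 lower of 64 against NS, beside 733 and 825 of all 12762 genes. Against AK it gave 4 higher and 11 lower of 62, beside 843 and 741 of all 12567 genes. With all samples kept, the retinol and retinaldehyde enzymes had the most falls. Of the 12 others tested beside Rdh10 and Dhrs9, 5 fell and 0 rose in cSCC vs. NS, 4 fell in cSCC vs. AK and 1 fell in AK vs. NS. DESeq2 and limma voom also found 0 higher in cSCC vs. NS, as did an unadjusted p under 0.05. With both included, the list's median log2 fold change was -0.77 in cSCC vs. NS, beside 0.14 over all genes.

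Adh7, an alcohol dehydrogenase that oxidises retinol, averaged 88.5 CPM in NS, 39.5 CPM in AK and 9.51 CPM in cSCC. It fell in AK vs. NS (log2 fold change -1.18 ± 0.33, edgeR adjusted p = 0.0441) and in cSCC vs. NS (log2 fold change -3.26 ± 0.73, edgeR adjusted p = 0.00877). The call in AK vs. NS held in 4 of 16 fits that left out 1 sample. Rdh16 had 347 counts in NS, 465 in AK and 4 in cSCC, all of them in replicate 18. Rdh11 fell from 72.0 ± 13.4 CPM (SD) in NS to 26.8 ± 10.9 CPM in cSCC (edgeR adjusted p = 0.00571), and Adh1 from 92.7 ± 53.1 CPM to 20.7 ± 12.2 CPM (edgeR adjusted p = 0.0156). The fifth, Rdh12, was named after its values were seen, and lost its call in 9 of 12 fits that left out 1 sample. Rdh and Adh genes have close relatives, and reads shared between them could have been split by the counting.

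Of 7 sebocyte markers tested, 4 fell in cSCC vs. NS, beside 7.65% of all genes. Plin2 alone of the list had a higher mean in cSCC (513 CPM) than in NS (313 CPM). Mc5r and Awat2 were at 0 in all cSCC samples, but Mc5r averaged 2.45 CPM in NS, where 3 counts were 3.41 CPM in cSCC replicate 20. The list summed to 1077 to 5238 CPM in NS, 1004 to 2205 CPM in AK and 304 to 2174 CPM in cSCC, the highest in replicate 20. The part of sebocytes and of suprabasal keratinocytes, given above, in the falls of the enzymes was not tested.

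**Figure D4:**
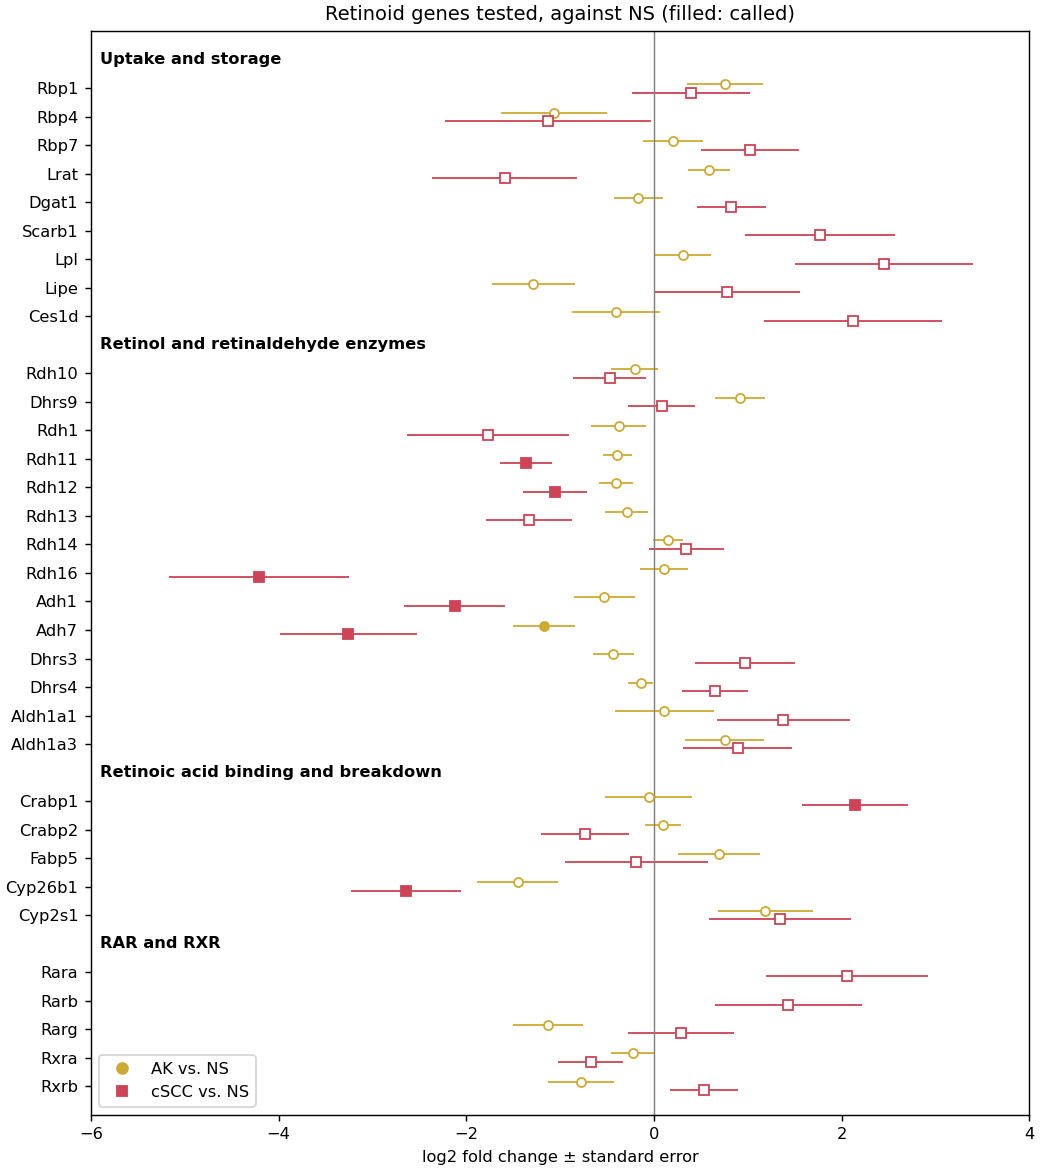
Fitted log2 fold change with its standard error for tested genes of 4 of the pathway lists, in AK vs. NS (circles) and cSCC vs. NS (squares). Filled symbols are DEGs, and Bco1 is left out because it had no counts in cSCC. All filled symbols among the retinol and retinaldehyde enzymes lie below 0.

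In uptake and storage of retinoids, Bco1, which cleaves beta-carotene to retinaldehyde, had 144 counts in NS, 26 in AK and 0 in cSCC. Taking 3 counts over the cSCC group as the limit, it was at least 16.5-fold lower in cSCC than in NS. It was the 1 DEG of 10 tested in that list, beside 19.3% of all genes, and it was not a DEG without cSCC replicates 20 and 21. The list's median log2 fold change was 0.80, also with Bco1 at its bound, beside 0.14 over all genes. This median includes cSCC replicates 20 and 21 and was not computed without them. Dgat1 was highest in replicate 20 (70.5 CPM) and Scarb1 in replicate 21 (26.6 CPM), though not every gene of the list was highest there. In cSCC vs. AK, Dgat1 and Scarb1 rose, of 9 tested, where 1931 of all 12032 genes rose. Neither was a DEG without cSCC replicates 20 and 21, and Scarb1 held its call in 2 of 10 fits that left out 1 sample.

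Crabp1, the other cellular retinoic acid binding protein, averaged 10.3 ± 7.29 CPM (SD) in NS, 10.6 ± 5.94 CPM in AK and 44.5 ± 24.4 CPM in cSCC, and rose in cSCC vs. NS by a log2 fold change of 2.14 ± 0.57 (edgeR adjusted p = 0.0189). Its lowest cSCC value was 12.7 CPM in replicate 21 and its highest 68.1 CPM in replicate 19, without which the call was lost (edgeR adjusted p = 0.0620). Without replicates 20 and 21 the log2 fold change was 2.63. Whether the changes of Crabp1 and Crabp2 differ from each other was not tested.

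Among receptors, none of the RAR and RXR genes was a DEG by edgeR, of 3 tested in AK vs. NS, 5 in cSCC vs. NS and 4 in cSCC vs. AK. The shares of all genes were 4.64%, 19.3% and 24.4%, so 0 of so few genes says little. At an unadjusted p under 0.05 in edgeR, 2 were lower in AK vs. NS, as were 1527 of all 11677 genes. At that p, 1 was higher in cSCC vs. NS (2486 of all 12097 genes) and 3 were higher in cSCC vs. AK (2951 of all 12032 genes). The 1 was highest in cSCC replicate 20 (17.1 CPM), and each of the 3 was highest in cSCC replicate 21 (14.6 to 23.5 CPM). DESeq2 called 1 lower in AK vs. NS and 2 higher in cSCC vs. AK, and limma voom called 0. Of the other partners of RXR, Nr1h2 and Nr1h3, the oxysterol receptors, rose in cSCC vs. AK. Both were highest in cSCC replicate 21 (66.8 and 36.6 CPM), and neither was a DEG without that replicate. Rora, of the ROR family, averaged 525 CPM in NS, 490 CPM in AK and 71.7 CPM in cSCC, with 26.4 to 122 CPM in the 4 cSCC samples. It fell in cSCC vs. NS by 2.82 ± 0.45 on the log2 scale (edgeR adjusted p = 0.00171), and in all 12 fits that left out 1 sample.

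Of 10 cofactors tested, 2 fell in AK vs. NS, beside 2.38% of all genes, and 1 fell in cSCC vs. NS, beside 7.65%. Hr, a corepressor that binds Vdr and is mutated in hairless strains such as SKH-1, averaged 7.19 ± 3.19 CPM (SD) in NS and 2.04 ± 1.10 CPM in AK, and fell by 1.86 ± 0.41 on the log2 scale (edgeR adjusted p = 0.0200; 15 of 16 fits that left out 1 sample kept the call, that without NS replicate 4 did not). The coactivator Ncoa3 fell in cSCC vs. NS from 52.3 ± 8.63 CPM to 24.1 ± 6.38 CPM (edgeR adjusted p = 0.0109), and Ncoa2 in cSCC vs. AK (edgeR adjusted p = 0.0305; 8 of 12 such fits).

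Of 8 retinoic acid targets tested in cSCC vs. NS, Cyp26b1 included, 1 rose and 2 fell, beside 11.7% and 7.65% of all genes. Rarres1, named for its response to retinoids, averaged 127.6 CPM in NS, 71.1 CPM in AK and 16.9 CPM in cSCC. It was a DEG in all 3 comparisons, with a log2 fall of 0.87 ± 0.21 in AK vs. NS (edgeR adjusted p = 0.0288; kept in 9 of 16 fits that left out 1 sample) and of 2.91 ± 0.48 in cSCC vs. NS (edgeR adjusted p = 0.00200; 12 of 12). Tgm2, a transglutaminase, rose in cSCC vs. NS (edgeR adjusted p = 0.00777), but its highest value was 167 CPM in replicate 21 against 6.38 CPM on average in NS, and without that replicate the adjusted p was 0.140.

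In vitamin D synthesis, Dhcr7, which diverts the vitamin D precursor to cholesterol, fell from 35.2 ± 10.6 CPM (SD) in NS to 18.9 ± 3.98 CPM in AK (log2 fold change -0.92 ± 0.20, edgeR adjusted p = 0.0190) and kept its call in all 16 fits that left out 1 sample. Pdia3, a disulfide isomerase also described as a membrane receptor of calcitriol, rose from 481 ± 93.0 CPM in NS to 901 ± 284 CPM in cSCC (edgeR adjusted p = 0.0230), a call lost without cSCC replicate 19.

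Of the vitamin D targets, 6 were tested in AK vs. NS with 0 DEGs by edgeR and by DESeq2, 1 lower by limma voom, and 2 lower at an unadjusted p under 0.05. Of all 11677 genes, 4.64% were DEGs by edgeR and 1527 were lower at that unadjusted p. In cSCC vs. NS Cd14, a coreceptor for bacterial lipopolysaccharide, rose from 31.4 ± 14.5 CPM to 616 ± 378 CPM (log2 fold change 4.35 ± 0.49, edgeR adjusted p = 0.000323) and Bglap (osteocalcin) fell, with 240 counts in NS and 2 in cSCC, a call lost without cSCC replicates 20 and 21. Relative to library totals the cSCC-to-NS ratio of Bglap was 0.0199, with a 95% exact counting interval from 0.00239 to 0.0726, and reads of its near-identical neighbours could have been counted with it. Neutrophil markers summed to 81.8 to 5793 CPM in NS and 2284 to 14742 CPM in cSCC, and 2 of 7 rose, where 11.7% of all genes rose. Of 7 macrophage markers 1 rose, with sums of 1370 to 4868 CPM in NS and 709 to 6430 CPM in cSCC. The part of these cells in the Cd14 result was not tested.

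Over the 16 NS and AK samples, the genes ranked most like each member were sought among 10384 genes with a mean of at least 5 CPM, by Spearman's rho of log2(CPM + 1). The points share libraries, depth and the group difference, and the search over many genes selects high values, so these are descriptions. For Vdr they were Gm8898 (0.91), Atad2b (0.89) and Smim5 (0.87). Rarg was matched by Tmem159 (0.91), Elovl1 (0.91), an enzyme of long-chain fatty acid synthesis, and Hspb1 (0.91), a small heat shock protein. Rxra was followed by Cs (0.89), citrate synthase, with Rab3d and Thap4 (both 0.84). The nearest to Rdh10 were Ube2b (0.89), Ap3m1 (0.87) and Cdon (0.85), and to Crabp2 Psmc2 (0.83), BC048507 (0.81) and Sf3b5 (0.80). Dhrs9 was matched by Maoa (0.91), monoamine oxidase, Samd8 (0.89) and Gjb6 (0.88), a gap junction protein of the epidermis. Cyp26b1 was matched by Rps27l (0.84), Ndufb4 (0.84) and Hes1 (0.83), a Notch target. Within 1 group the values could be lower: within NS alone the matches of Cyp26b1 had a rho of 0.43 to 0.57, and within AK alone Crabp2 and Sf3b5 had 0.48.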

How the data were processed

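By the study's methods, the authors used Trimmomatic for trimming, HISAT2 for alignment to GRCm38 and StringTie for quantification. The submitters' processing notes list Trimmomatic 0.36, HISAT2 2.0.5 and featureCounts 1.5.2, and the builds hg19 and mm9 without a role. The strand setting is not given in the sources used here. The deposited table holds raw counts per gene symbol, not normalized. No sequencing batch is given, and over 62 pairs of samples of a group none was a duplicate (smallest chi-square per degree of freedom 11.3). Replicates are separate tissues, some of 1 mouse.

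From the counts, TMM factors and quasi-likelihood tests were computed in edgeR 4.0.16 (R 4.3.3), with genes kept by filterByExpr and only the groups compared. The SE is the log2 fold change divided by the square root of F. Scripts were tested on simulated data. Permutation tests are exact and two-sided. Intervals and floors cover counting error only. Coordinates and exon lengths come from GENCODE M21 (GRCm38) and promoter windows from RefSeq.

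The genes and lists were chosen with earlier results of these data known. Named genes are the 9 genes, at most 3 DEGs per list and comparison by lowest adjusted p, Rora and the 3 genes most like each member. Alternatives were DESeq2 1.42.0, limma 3.58.1 voom, other scalings and filters, the paper's rule (an unadjusted per-gene test on log2 values), a single fit of all samples, dropping the fold change limit, 0.1 as pseudocount where 1 was used, and samples left out. Single member fits without cSCC replicates 20 and 21 were added after seeing the data. Results for some withheld genes of the lists are not reported here, although the counts of DEGs include them.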

Additional observations from a re-analysis of the deposited data

Results flagged for a closer look

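In 26 sets of values of a gene in a group, 5 samples stood apart from the rest of their group by Dixon's ratio at the 95% level, a flag that chance raises in about 1 of 20 groups. Rarg stood at 23.5 CPM in cSCC replicate 21, with the other 3 cSCC samples between 3.52 and 4.55 CPM, and at 0.599 CPM (1 count) in AK replicate 16, with the other AK samples between 2.97 and 6.14 CPM. The other 3 rest on few counts in a group otherwise at 0. Cyp24a1 was at 1.91 CPM in NS replicate 9 and at 0.914 CPM in AK replicate 17, and Cyp27b1 was at 0.331 CPM in cSCC replicate 21.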

How the results depend on the processing

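No paired analysis was possible because the replicate numbers differ between groups and no label names the mouse a sample came from. Under the alternatives that keep all samples, and without cSCC replicates 20 and 21, 191 of 223 values of the 7 genes kept their direction and side of the threshold. Of the rest, 19 newly passed the threshold of the alternative, 3 no longer passed and 10 changed sign. For the paper's rule this threshold was an unadjusted p under 0.05 with the fold change limits. For the exact permutation test it was an unadjusted p under 0.05 alone. Most of the 19 came from these looser thresholds. Reversed were Dhrs9 in cSCC vs. NS (-0.10 by library size alone, -0.033 by the paper's rule and by the exact test, both on mean log2(CPM + 1), and -0.32 to 0.25 over the fits that left out 1 sample, below 0 without NS replicate 1 or cSCC replicate 19), Rarg in cSCC vs. NS (-0.087 by library size alone, -0.38 by limma voom, -0.15 by mean log2(CPM + 1), -1.05 without cSCC replicates 20 and 21, and -0.96 to 0.55 with 1 sample left out) and Rdh10 in cSCC vs. AK (0.038 by limma voom, 0.0033 without replicates 20 and 21). The cause was not tested. Vdr in cSCC vs. NS passed under every alternative run, with log2 fold changes from -2.15 to -1.10. Vdr in cSCC vs. AK did not pass under limma voom (-1.35, adjusted p = 0.0736).

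Of the 7 genes tested, AK vs. NS gave 1 call by library size alone, 1 by upper quartile factors, 3 by DESeq2's Wald test, 2 by limma voom, 3 by the paper's rule and 0 to 2 with 1 sample left out (1 without NS replicate 7, 1 without NS replicate 8, 2 without AK replicate 17). In cSCC vs. NS limma voom gave 1 and leaving out 1 sample always gave 2. In cSCC vs. AK limma voom gave 0 and the paper's rule 3, a rule that called 3757 of all 12032 genes. Leaving out replicates 20 and 21 gave 0, and leaving out 1 sample 1 to 2 (2 without cSCC replicate 18 or 19).

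Of the other pathway genes, AK vs. NS gave 8 by DESeq2, 8 by limma voom, 14 by the paper's rule and 0 with all 20 samples in 1 fit. In that single fit 1 was higher and 13 lower at an unadjusted p under 0.05, beside 970 and 961 of all 12847 genes. With 1 sample left out AK vs. NS gave 1 to 6, where 9 samples (NS replicates 1, 2, 4 and 5, AK replicates 12 to 16) each moved the count by over 1.5 times. In cSCC vs. NS they gave 23 with all samples in 1 fit (3271 of all 12847 genes) and 26 by the paper's rule (3391 of all 12097 genes). With 1 left out they gave 14 to 23 (23 without cSCC replicate 18, where 3181 of all 12636 genes were called). In cSCC vs. AK they gave 26 with all samples in 1 fit (3765 of all 12847 genes). With 1 left out they gave 11 to 27 (27 without cSCC replicate 18, where 3994 of all 12734 genes were called).

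Over all genes, AK vs. NS gave 1049 by DESeq2, 1043 by limma voom, 9 with all samples in 1 fit, 1828 by the paper's rule and 164 to 920 with 1 left out. In cSCC vs. NS limma voom gave 1308, leaving out replicates 20 and 21 gave 1558, and leaving out 1 sample 1695 to 3181. In cSCC vs. AK these were 1270, 1584 and 1787 to 3994. Depth limits Cyp27b1 and Cyp24a1, for which a pseudocount of 0.1 in place of 1 changed the differences of mean log2 values by more than 1 SD in cSCC vs. NS (Cyp27b1) and in cSCC vs. AK (both).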
